A study of Homo sapiens with 20 samples.

Results

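The genes examined here encode enzymes that place or remove marks on histones and motors that move nucleosomes. They are the 67 protein-coding genes of GENCODE release 44 (GRCh38), of 20046 in all, chosen by symbol: 4 KMT2 genes, 9 SETD genes, 20 KDM genes, 11 HDAC genes, 10 CHD genes and 13 SMARC genes. A further KMT2 gene was left out and is not analysed here. The data are chromatin immunoprecipitation followed by sequencing (ChIP-seq) from PC-3 cells, an established human prostate cancer line, with antibodies to the transcription factor c-Myc (written MYC) or to RNA polymerase II (written POL2). The 2 genotypes were wild type (WT) and a knockout of the kinase gene SLK (SLK-KO), each with 3 libraries per antibody. No group received a treatment. All knockout libraries carry the name PSD10 in the labels, which do not say whether it is a single clone. IgG and Input control samples are not analysed here.

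Most KMT2 and several SETD enzymes methylate histone H3, at lysine 4 or, for SETD2, at lysine 36, and KDM enzymes remove methyl groups from lysines. HDAC enzymes remove acetyl groups and act mostly inside corepressor complexes. CHD and SMARC proteins are ATP-driven remodelers and their partners: most SMARC genes encode SWI/SNF (BAF) subunits or ISWI motors, and SMARCAL1 encodes an annealing helicase. MYC binds DNA with its partner MAX, preferring the E-box CACGTG, and is found mostly at promoters that already carry POL2.

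Each library came as a list of peak summits, the single base of highest enrichment in a called peak, with a score by which summits are ranked inside their list (rank 1 is the best). A gene counts as having a summit when one lies within 1 kb of any annotated transcription start site (TSS) of the gene. The MYC lists held 201 to 365 summits in WT and 988 to 1420 in SLK-KO, and the POL2 lists 5047 to 17126 and 15436 to 19017. Read depth is unknown, so a missing summit is a peak that was not called, not an absence of binding, and a longer list cannot be told apart from a deeper library. SLK itself had a POL2 summit in 2 WT and 3 SLK-KO libraries, which does not test the loss of its product. POL2 summits lay at all 5 epithelial markers in at least 1 library (KRT8, KRT18 and KRT19 in all 6, CDH1 in 1), at 2 of 5 prostate luminal and androgen response markers, at 1 of 5 fibroblast markers and at 0 of 5 leukocyte markers.

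MYC summits lay at few of these genes in WT and at more in SLK-KO. Every WT list had 1 of the 67 genes (1.49% in each of 3 libraries), the SWI/SNF core subunit gene SMARCC1. The SLK-KO lists had 8, 10 and 9 genes (13.4% ± 1.49, SD, n = 3), so the genotypes did not overlap. Over all coding genes the shares were 1.42% ± 0.395 in WT and 5.50% ± 0.861 in SLK-KO, also without overlap. The set was thus near the share of all coding genes in WT and above it in SLK-KO. Among coding genes with a POL2 summit in at least 1 library the MYC shares were 2.6% in WT and 10.1% in SLK-KO. Against these, the 67 genes, with or without POL2, were lower in WT and less far above in SLK-KO. The 67 genes have a median of 15 annotated TSSs, against 5 for all coding genes, which gives a summit more places to fall. With only the canonical TSS of each gene, the SLK-KO shares were 9.95% for the set and 4.88% for all coding genes, and the WT shares 1.49% and 1.25%.

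Across the 6 MYC libraries 13 of the 67 genes had a summit in at least 1 library (19.4%), against 9.65% of all coding genes and 17.7% of coding genes with a POL2 summit somewhere. Among the 57 members with a POL2 summit the share was 22.8%. All 13 had a POL2 summit in at least 1 library, and 9 of them in all 6. The first count is near that of all coding genes, where 1904 of the 1935 with a MYC summit also had a POL2 summit. For the 9 no such share was computed. By family the 13 genes were 4 of 10 CHD genes, 5 of 20 KDM genes, 2 of 13 SMARC genes, 1 of 9 SETD genes, 1 of 11 HDAC genes and 0 of 4 KMT2 genes. CHD genes had the highest share in SLK-KO, at 33.3% ± 5.77 (SD, n = 3), or 3 to 4 genes of 10 per library, and none in WT. They have a median of 20.5 annotated TSSs, and with canonical TSSs only their SLK-KO share was 23.3%.

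**Figure D1:**
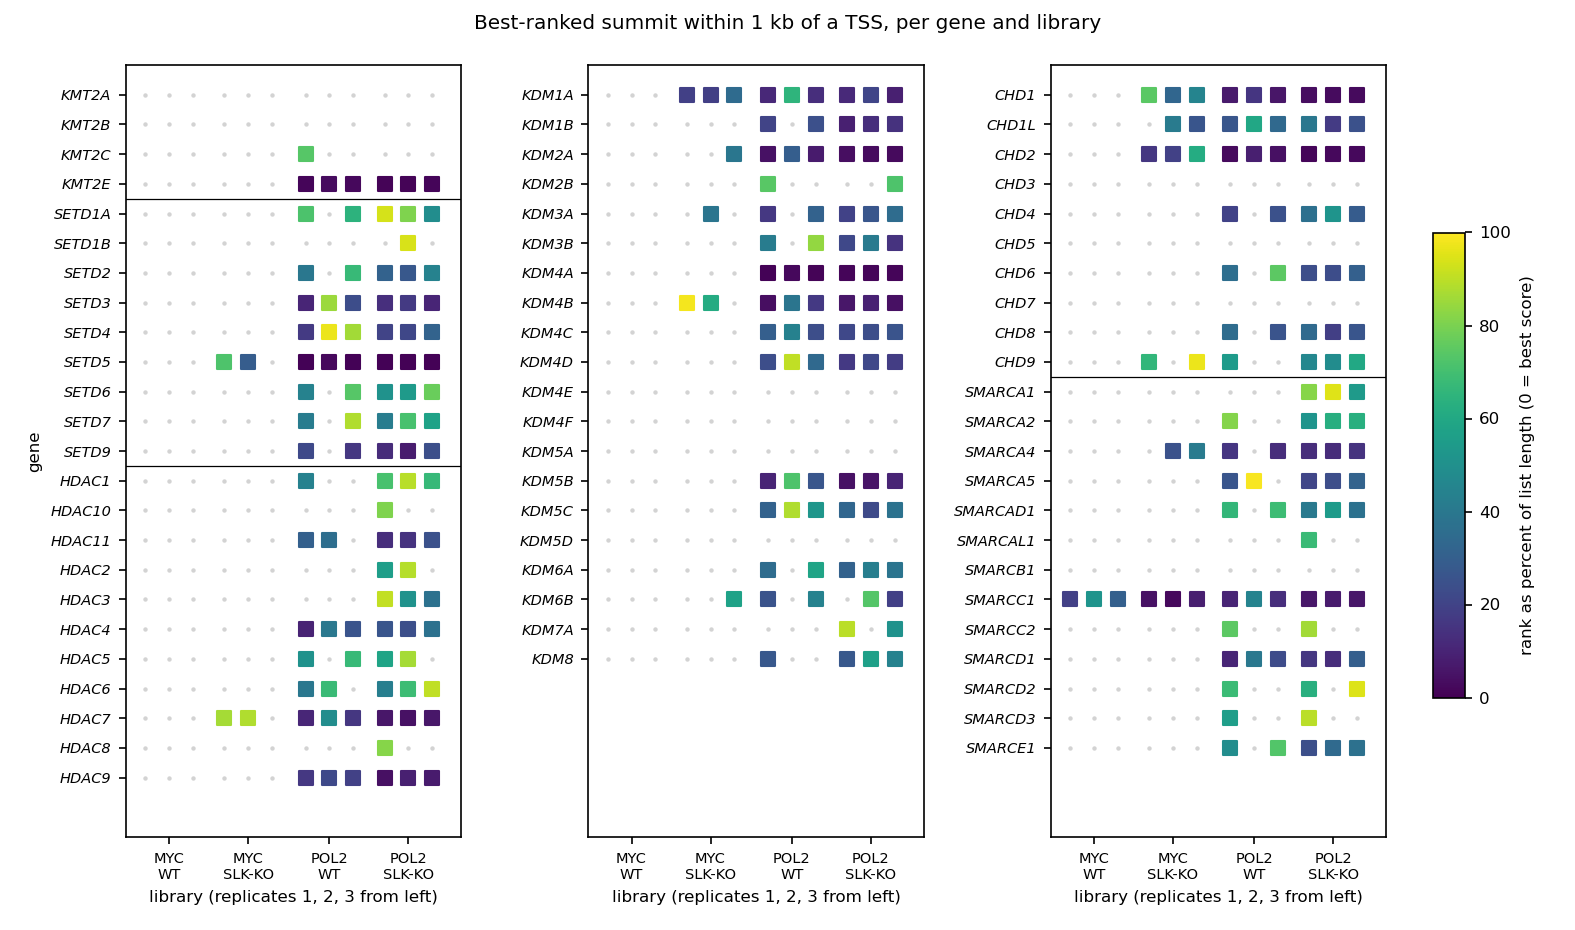
For each of the 67 genes (rows, by family) and each of the 12 libraries (columns), a square marks a summit within 1 kb of a TSS, coloured by the best rank as a percent of list length, and a grey dot marks no summit. SMARCC1 is the only gene with squares in the WT MYC columns, while 20 genes have squares in all 6 POL2 columns.

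**Figure D2:**
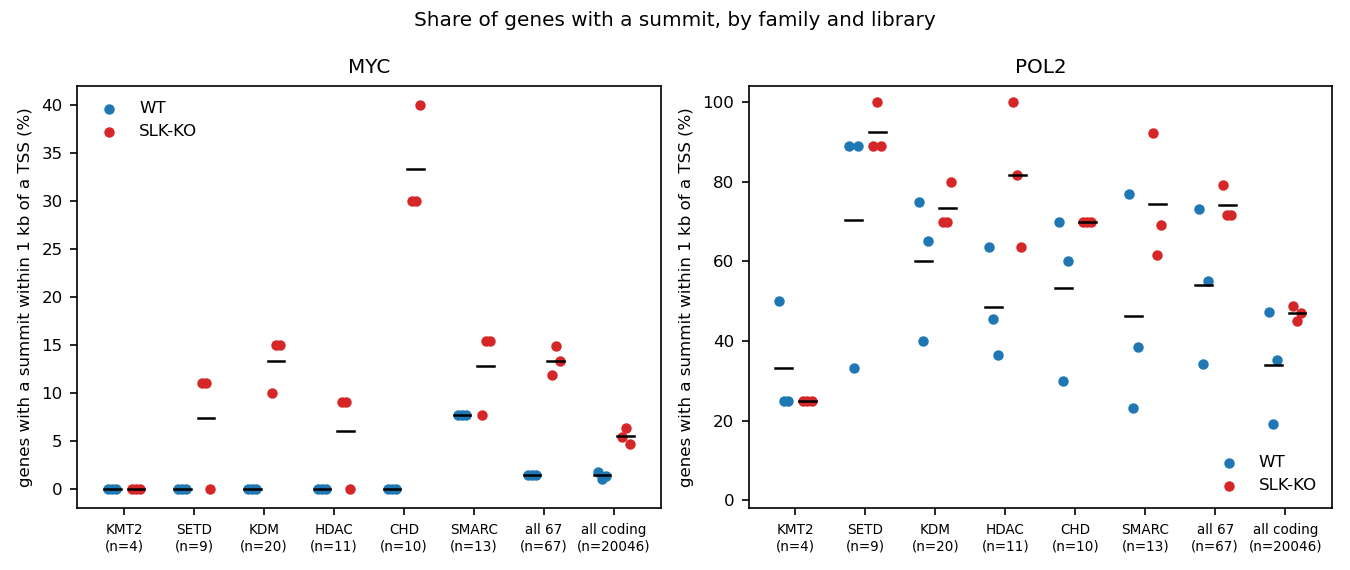
The percent of genes with a summit within 1 kb of a TSS is plotted for each library (points) with the mean of 3 libraries (black lines), by family and for all coding genes, MYC on the left and POL2 on the right. MYC shares are higher in every SLK-KO library than in every WT library for the 67 genes and for all coding genes, and POL2 shares overlap between genotypes in most families.

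SMARCC1 (ENSG00000173473.11, chromosome 3, 47585269 to 47782106, minus strand) was the only one of the 67 genes with a MYC summit in all 6 libraries, or 1.49% against 0.494% of all coding genes. It encodes BAF155, a scaffold subunit of SWI/SNF. Its summit ranked 69, 104 and 81 in the WT lists and 53, 30 and 82 in the SLK-KO lists. It was the best-ranked MYC summit of the set in every library. The 6 summits fell within 84 bp of each other (47781444 to 47781528) in an intron of the canonical transcript, 395 to 437 bp past the nearest TSS in WT and 353 to 380 bp past it in SLK-KO. POL2 summits at SMARCC1 lay 77 to 94 bp past the TSS in all 6 POL2 libraries, and the POL2 summit of the same-numbered library was 261 to 348 bp from the MYC summit. No CACGTG lay within 100 bp of any of the 6 MYC summits.

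KDM1A, CHD1 and CHD2 had a MYC summit in all 3 SLK-KO and 0 WT libraries. These 3 genes are 4.48% of the set, against 0.873% of all coding genes, and 5.26% of the members with a POL2 summit, against 1.61% of coding genes with one. No gene of the set showed the reverse pattern, nor did any coding gene (0%). For each of the 3 genes the exact two-sided permutation p was 0.1, the smallest that 20 relabellings of 6 libraries allow, and the Benjamini-Hochberg adjusted p over all 20046 genes was 1, so no single gene passed a test. With canonical TSSs only, the CHD2 call was lost, since its summits lie at an internal start, and KDM1A and CHD1 were left. Without SLK-KO replicate 1 the count was 5 (CHD1L and SMARCA4 added), and without SLK-KO replicate 3 it was 6 (SETD5, HDAC7 and KDM4B added), since fewer libraries then have to hold a summit.

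KDM1A (LSD1, the flavin-dependent demethylase of histone H3 lysine 4; ENSG00000004487.18, chromosome 1, 23019443 to 23083689) had MYC summits at ranks 232, 265 and 343 in SLK-KO. They fell within 5 bp of each other, 49 to 54 bp before the nearest TSS. The POL2 summit of the same-numbered library was 122 to 175 bp away. POL2 ranks at KDM1A were 1896, 3277 and 1281 in WT and 2166, 3185 and 1407 in SLK-KO, and the ranges overlapped. The TSS of TEX46 was 289 to 294 bp from these summits, so the peak may belong to either gene.

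CHD2 (a chromodomain remodeler; ENSG00000173575.24, chromosome 15, 92886203 to 93027996) had MYC summits at ranks 192, 276 and 608 in SLK-KO, within 22 bp of each other. They lay 6 to 28 bp past an internal TSS, 4155 to 4177 bp past the canonical one. The best-ranked POL2 summits of CHD2 were not at that site but near the canonical TSS (92900361 to 92900409), at ranks 437, 418 and 417 in WT and 240, 327 and 355 in SLK-KO. A second, lower-ranked POL2 summit lay near the MYC site in all 6 libraries, 26 to 168 bp from its middle in WT and 52 to 277 bp in SLK-KO. Its ranks were 2937, 3983 and 1995 in WT and 946, 726 and 814 in SLK-KO. Like the ranks near the canonical TSS, they come from lists of different length and cannot be read as a change. The start of the microRNA gene MIR3175 was 80 to 102 bp from the MYC summits.

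The sequences at these 3 promoters are shown because they carry the summits shared by the most libraries and hold no CACGTG. They were read from GRCh38, 5′ to 3′ on the strand of the gene, around the middle of the site. Annotated UTR bases were kept out except in the 30-base window of CHD2. Capitals mark CACGAG in either orientation, a 6-base variant of the E-box.
SMARCC1, chr3:47781406-47781565, minus strand: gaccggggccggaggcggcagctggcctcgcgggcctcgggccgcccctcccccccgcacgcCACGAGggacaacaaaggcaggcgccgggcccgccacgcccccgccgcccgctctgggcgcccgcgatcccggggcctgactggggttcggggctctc
KDM1A, chr1:23019339-23019442, plus strand: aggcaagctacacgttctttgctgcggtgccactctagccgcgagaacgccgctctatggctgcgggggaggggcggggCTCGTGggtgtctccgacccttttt
CHD2, chr15:92904475-92904504, plus strand: ggagccgcacgccgaggggaaaaggaaggg

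All 6 SMARCC1 summits and all 3 KDM1A summits lie inside their windows, which are 81.9% and 64.4% G or C. Counted on both strands, CACGAG was within 100 bp of 12 of the 31 MYC summits of the set (38.7%), at SMARCC1, KDM1A, HDAC7, KDM3A and KDM6B. The share over whole MYC lists was 15.0% in WT and 13.9% in SLK-KO, and at POL2 summits 5.16% and 5.06%. The variant CACGCG, counted separately on both strands, was within 100 bp of 15 of the 31 (48.4%), against 34.2% and 28.8% of all MYC summits and 8.08% and 7.41% of POL2 summits. Summits of different libraries at 1 gene share their sequence, so these counts rest on a few promoters.

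CACGTG itself lay within 100 bp of 7 of the 31 MYC summits of the set (22.6%), at CHD1, CHD9, KDM3A and KDM6B. Over whole lists the share was 42.7% in WT and 30.3% in SLK-KO, and 3.66% and 3.58% at POL2 summits. In the SLK-KO libraries 2 of 8, 2 of 11 and 3 of 9 summits of the set had one, and in WT 0 of 1 in each library. These windows are shown because they are the canonical E-boxes under MYC summits of the set, with CACGTG in capitals, GRCh38, on the strand of the gene.
CHD1, chr5:98928144-98928263, minus strand: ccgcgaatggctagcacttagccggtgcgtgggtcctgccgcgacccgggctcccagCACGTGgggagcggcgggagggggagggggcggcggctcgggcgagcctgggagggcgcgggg
CHD9, chr16:53054820-53054939, plus strand: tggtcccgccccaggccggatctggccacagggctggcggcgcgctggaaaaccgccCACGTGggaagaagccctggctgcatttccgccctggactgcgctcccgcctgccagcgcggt
CHD9, chr16:53055139-53055258, plus strand: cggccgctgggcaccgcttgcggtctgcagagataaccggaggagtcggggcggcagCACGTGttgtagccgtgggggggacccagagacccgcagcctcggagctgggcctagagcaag
KDM3A, chr2:86440709-86440738, plus strand: cacgatcagtacCACGTGcgcctgcgcctc
KDM6B, chr17:7844101-7844220, plus strand: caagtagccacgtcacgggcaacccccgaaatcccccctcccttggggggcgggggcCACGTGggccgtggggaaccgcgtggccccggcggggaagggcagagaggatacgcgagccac

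CHD1 (a remodeler that binds methylated histone H3 lysine 4; ENSG00000153922.12, chromosome 5, 98853985 to 98929007, minus strand) had MYC summits 444, 471 and 452 bp past the nearest TSS in SLK-KO, or 764, 791 and 772 bp past the canonical one. They were in an intron, 39.5, 12.5 and 31.5 bp from the middle of the E-box. The ranks were 904, 465 and 444. POL2 lay 234 to 307 bp before the canonical TSS in all 6 libraries, and the MYC summits were 1025 to 1049 bp from the POL2 summits of the same number. POL2 ranks at CHD1 were 1163, 788 and 548 in WT and 616, 444 and 445 in SLK-KO, and the ranges overlapped.

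At KDM3A, a demethylase of histone H3 lysine 9, the single MYC summit (SLK-KO replicate 2, rank 552) lay 1.5 bp from the middle of the E-box. At KDM6B, a demethylase of histone H3 lysine 27, the single summit (SLK-KO replicate 3, rank 569) lay 3.5 bp from it and 9947 bp past the canonical TSS, at an internal start. CHD9, a further chromodomain gene, had summits in SLK-KO replicates 1 and 3 at ranks 803 of 1218 and 958 of 988. These 2 summits were 215 bp apart, and each had its own E-box at 63.5 and 40.5 bp.

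The other members with a MYC summit in 2 SLK-KO libraries and 0 WT libraries were SETD5, HDAC7, CHD1L, SMARCA4 and KDM4B. SETD5, a SET domain gene, had summits at ranks 879 and 411 in replicates 1 and 2, 932 and 918 bp before its TSS. They lay 0 and 14 bp from a start of the lncRNA THUMPD3-AS1. HDAC7, a class IIa deacetylase, had summits at ranks 1053 and 1251 in replicates 1 and 2. CHD1L, a remodeler without a chromodomain, had summits at ranks 583 and 260 in replicates 2 and 3, with a TSS of FMO5 61 and 73 bp away. These neighbours mean that a summit at SETD5 or CHD1L cannot be assigned to 1 gene.

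SMARCA4 (BRG1, the ATPase of SWI/SNF; chromosome 19, 10960932 to 11079426) had summits at ranks 356 and 409 near its first starts in replicates 2 and 3. They lay 46 bp past and 2 bp before a TSS, and replicate 2 had another at rank 501 in an intron 74936 bp past the canonical TSS. KDM4B, a demethylase of histone H3 lysines 9 and 36, had summits at ranks 1198 and 868 beside internal starts, 77699 and 77445 bp past its canonical TSS. The nearest POL2 summits of the same number were 71391 and 77443 bp away. POL2 at KDM4B sat at a TSS to within 12 bp in all 6 libraries. MYC and POL2 summits of KDM4B were thus at different parts of the gene.

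KDM2A, a demethylase of histone H3 lysine 36, had a single MYC summit in SLK-KO replicate 3 at rank 389. It lay 1 bp from the POL2 summit of that number, at an internal start 120781 bp past the canonical TSS. Of the 31 MYC summits of the set, 8 lay over 1 kb from the canonical TSS of their gene, at 5 genes (CHD2, KDM2A, KDM4B, KDM6B and SMARCA4). By the canonical transcript 21 summits were intronic and 10 upstream. A POL2 summit of the same-numbered library was within 250 bp of 8 of the 28 SLK-KO summits and 0 of the 3 WT summits. The 3 WT summits are all at SMARCC1, where the SLK-KO summits were also farther than that from POL2 (261 to 299 bp). These counts thus cover different genes and cannot be read as a genotype difference. No shares over all MYC summits were computed, so the counts of position and POL2 distance given here have no background.

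**Figure D3:**
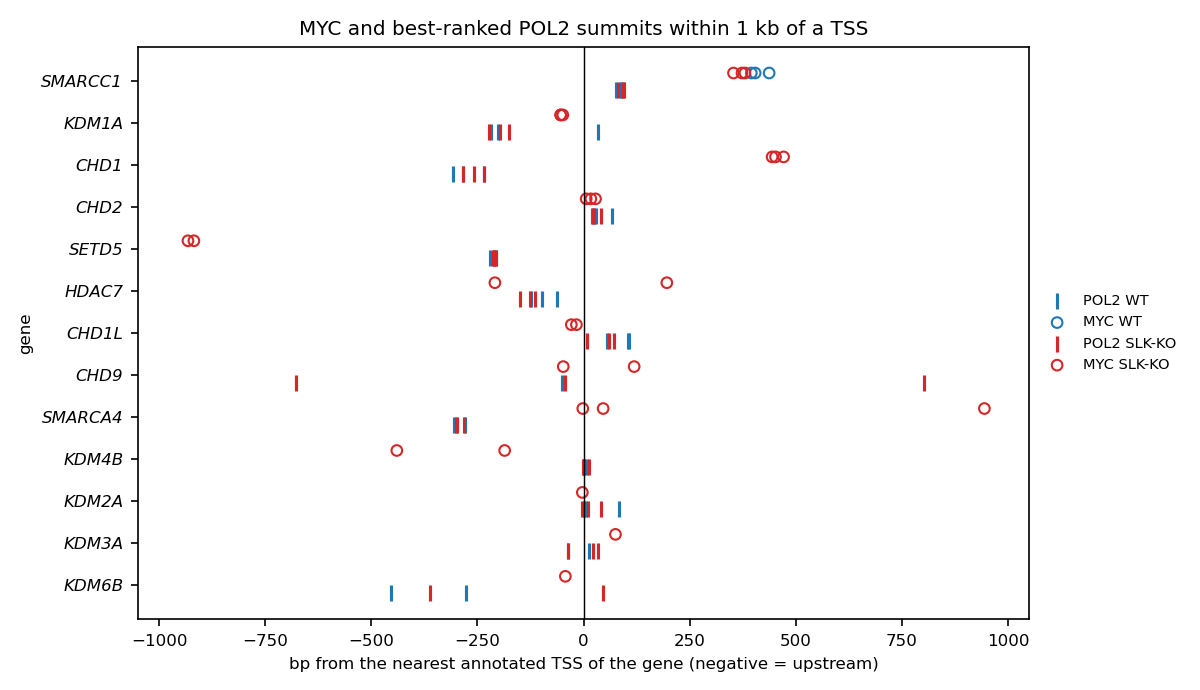
Signed distance in bp from the nearest annotated TSS of the gene is shown for MYC summits (circles) and the best-ranked POL2 summit of each library (bars) at the 13 genes with a MYC summit, WT in blue and SLK-KO in red. Each summit is measured from its own nearest TSS, so circles and bars of a gene can refer to different starts, as at CHD1, CHD2 and KDM4B. MYC lies past the start and past POL2 at SMARCC1, while SETD5 has MYC summits 918 and 932 bp upstream.

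The genotype difference for MYC was not seen in lists of equal length. The WT lists end at 365, 201 and 267, and of the 28 SLK-KO summits of the set only SMARCC1 (3 summits) and CHD2 in replicate 1 (rank 192) were within the best 201. In lists cut to the best 201 summits, the WT libraries had SMARCC1 alone and the SLK-KO libraries had SMARCC1 in all 3 and CHD2 in replicate 1. The shares were then 1.49% in each WT library and 2.99%, 1.49% and 1.49% in SLK-KO, and the genotypes overlapped. No gene of the set was then in 3 SLK-KO and 0 WT libraries. KDM1A, with ranks 232 to 343, falls between the shortest and the longest WT list, and CHD1, at 444 and worse, beyond all 3.

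**Figure D4:**
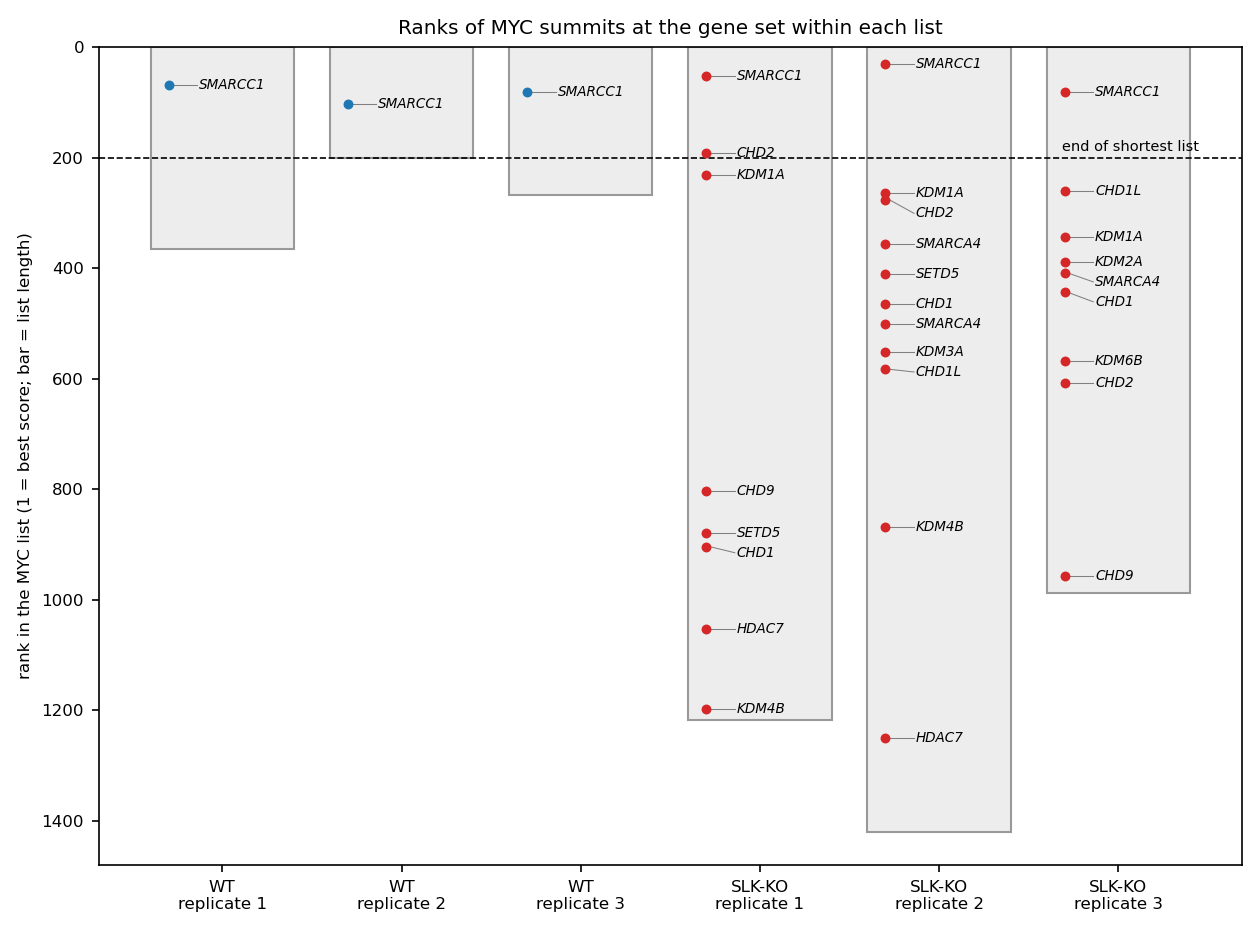
Each point is a MYC summit at a gene of the set, plotted by its rank in the list of its library. Grey bars show the list length and the dashed line the end of the shortest list (201 summits). Only the SMARCC1 points and 1 CHD2 point lie above the dashed line.

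POL2 summits were called at most of these genes. At least 1 of 6 libraries had a summit at 57 of the 67 genes (85.1%), against 53.8% of all coding genes. All 6 libraries had one at 20 genes (29.9%), against 18.0%. Per library 49, 23 and 37 genes had a summit in WT (54.2% ± 19.4, SD, n = 3) and 53, 48 and 48 in SLK-KO (74.1% ± 4.31). The ranges overlapped, since WT replicate 1 (73.1%) was above SLK-KO replicates 2 and 3 (71.6%). Over all coding genes the shares were 33.9% ± 14.1 and 47.1% ± 1.92. The ratio of SLK-KO to WT was 1.37 for the set and 1.39 for all coding genes. With canonical TSSs only, the set had 49.8% and 69.7%, against 31.6% and 43.8%.

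The genotype difference of 19.9 points for POL2 depended on single libraries. It was 9.95 points without WT replicate 2, the shortest list, and 29.4 points without WT replicate 1, the longest WT list. Without WT replicate 2 the number of genes in all remaining libraries rose from 20 to 35, and 15 genes were missing from that library alone. With 5047 summits in each list, 26, 23 and 25 genes had a summit in WT and 27, 29 and 26 in SLK-KO, a difference of 3.98 points. The shares of all coding genes were then 24.7%, 19.1% and 23.7%, and 24.3%, 24.0% and 24.4%.

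The best POL2 ranks of the set were at SETD5, KDM4A, KMT2E and CHD2. Starts of neighbouring genes were not looked up for POL2 summits, so a summit counted here may also belong to a neighbour. SETD5 ranked 104, 107 and 68 in WT and 86, 98 and 75 in SLK-KO, within the best 2.12% of every list, with the summit 207 to 220 bp before the TSS. KDM4A, a demethylase of histone H3 lysines 9 and 36, ranked 129, 106 and 113 in WT and 227, 229 and 208 in SLK-KO, always 2 to 5 bp past the TSS. KMT2E, a SET domain gene of the KMT2 family, ranked 211, 153 and 213, and 193, 180 and 236, with the summit 591 to 621 bp before the nearest TSS. The KDM4A ranks did not overlap between genotypes, but ranks from lists of different length cannot be read as a change.

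In the HDAC family the gene with the best median POL2 rank among those in all 6 libraries was HDAC9, a class IIa deacetylase (2786, 1119 and 1902 in WT and 810, 1357 and 1175 in SLK-KO). In the SMARC family it was SMARCC1 (1723, 2249 and 1315, and 1186, 1090 and 969). Among the class I deacetylase genes, HDAC1 had POL2 summits in 1 WT and 3 SLK-KO libraries, HDAC2 in 0 and 2, HDAC3 in 0 and 3 and HDAC8 in 0 and 1. The best-ranked HDAC1 summits, at 32331691 to 32332449, lay within 1 kb of internal starts. That is near the 3′ end of the gene (32292083 to 32333635, plus strand). The class IIa genes HDAC4, HDAC7 and HDAC9 had them in all 6 libraries and HDAC5 in 2 and 2. All 9 SETD genes and all 11 HDAC genes had a POL2 summit in at least 1 library, as did 12 of 13 SMARC genes, 16 of 20 KDM genes, 7 of 10 CHD genes and 2 of 4 KMT2 genes.

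HDAC3, the catalytic subunit of the NCOR corepressor, and SMARCA1, an ISWI motor, had POL2 summits in 3 SLK-KO and 0 WT libraries. They are 2.99% of the set, against 1.54% of all coding genes, and 0 genes of the set showed the reverse, against 0.00998%. The exact two-sided permutation p was 0.1 for each, with an adjusted p of 1 over all genes. The SLK-KO ranks were 17278, 7790 and 6089 for HDAC3 and 15568, 14702 and 8787 for SMARCA1, all worse than the 5047 summits of the shortest WT list. In lists of 5047 summits neither kept the pattern, which these ranks fix in advance, and CHD6 alone showed it. The lists of WT replicates 1 and 3 held 17126 and 9925 summits. For HDAC3, ranks 7790 and 6089 were within both lengths and 17278 within neither. For SMARCA1, all 3 ranks were within the length of WT replicate 1, and 8787 also within that of WT replicate 3. The cut at 5047 thus does not test the pattern in the longer lists. Without WT replicate 1 the count was 6, with HDAC1, SMARCA2, KDM8 and CHD9 added. More SLK-KO than WT libraries had a POL2 summit at 31 genes (46.3%), against 30.5% of all coding genes, where the SLK-KO lists also reach more genes. More WT than SLK-KO libraries had one at 1 gene (1.49%, against 2.45%), KMT2C (1 WT library, rank 12584).

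No POL2 library had a summit at KMT2A, KMT2B, KDM4E, KDM4F, KDM5A, KDM5D, CHD3, CHD5, CHD7 and SMARCB1. KDM5D is on chromosome Y, where no list holds a summit. The nearest POL2 summit of any library was 3172 bp from a TSS of KMT2B, 3331 bp from CHD5, 10847 bp from KMT2A and 120935 bp from KDM5A, a demethylase of histone H3 lysine 4. It was 35657 bp from SMARCB1, a core subunit of SWI/SNF. Among the other SWI/SNF subunit genes, SMARCC1 and SMARCD1 had POL2 summits in all 6 libraries and SMARCA4 and SMARCE1 in 5. SMARCA2 had them in 4, SMARCD2 in 3 and SMARCC2 and SMARCD3 in 2. In all, 4 of the 67 genes (5.97%: KDM4E, KDM5A, KDM5D and SMARCB1) had no POL2 summit within 30 kb, against 31.9% of all coding genes. Why KDM5A and SMARCB1 lack called peaks was not tested, and the lists alone say nothing of their activity.

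Partner genes that are not in the set, 108 in 8 lists of complexes and enzyme classes, were read in the same way. A MYC summit lay at 27 of the 108 in at least 1 library and a POL2 summit at 95, where the shares over all coding genes were 9.65% and 53.8%. The MYC share among coding genes with a POL2 summit was 17.7%. The lists with MYC were 8 of 19 NuRD and HDAC corepressor genes, 5 of 19 further BAF subunit genes, 7 of 18 other methyltransferases, 2 of 9 PRC2 genes, 2 of 13 other remodelers, 2 of 7 sirtuins, 1 of 12 COMPASS partners and 0 of 11 acetyltransferases. PBRM1, the polybromo subunit of PBAF, was the only partner with a MYC summit in all 6 libraries, at ranks 71, 151 and 124 in WT and 210, 235 and 424 in SLK-KO. Its summits lay 7 to 39 bp from the TSS of GNL3, and each had a CACGTG within 100 bp.

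ARID1A, the large subunit of BAF, had MYC summits in 2 WT and 3 SLK-KO libraries, at ranks 197 and 138 in WT and 513, 290 and 540 in SLK-KO. RCOR3, a corepressor gene related to the KDM1A partner RCOR1, and KMT5B, a methyltransferase of histone H4 lysine 20, had the same count. SMYD5 had them in 3 WT and 2 SLK-KO libraries. RUVBL1, a helicase subunit of INO80 and TIP60, and SIRT5 had MYC summits in 3 SLK-KO and 0 WT libraries. These genes are 2 of the 108 partners, against 0.873% of all coding genes and 1.61% of coding genes with a POL2 summit, which is near those shares. Their ranks (576, 1127 and 581, and 1166, 636 and 482) were past the end of every WT list.

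RefSeq promoter sequences (GRCh38.p14, 300 bases around the start) were matched for 59 of the 67 genes. Their median G and C content was 66.3%, against 63.0% for the 15345 coding genes matched. KMT2 promoters were highest, at a median of 79.8%, although KMT2A (76.3%) and KMT2B (83.3%) had no POL2 summit. These 2 were not typical of the 10 genes without a POL2 summit. The 7 of those that were matched ranged from 45.3% to 83.3%, with a median below the 66.3% of the 59. This difference was not tested. CACGTG was in 5 of the 59 promoters (8.47%: CHD9, KDM4B, KDM4C, KDM6A and SETD6), against 8.89% of all matched. Of these 5, CHD9 and KDM4B had a MYC summit, and at KDM4B it was not at that promoter.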

How the data were processed

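MYC and POL2 ChIP-seq summit lists of 12 libraries (3 per antibody and genotype) were used. Per the labels and the submitters' processing notes, 50 bp paired-end reads were processed with nf-core/chipseq 2.1.0 against GRCh38.p14, with BWA 0.7.18-r1243 and MACS3 3.0.1 among the tools. The control library and caller options are not given in the sources used here. Each summit carries a score made by the authors within its own library, here taken to be a −log10 q-value (the lowest score of a list was 1.30 to 1.43). It served only to rank and filter summits within a list. Replicates are labelled biological, and p-values measure the spread between these libraries.

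Distances were taken from each summit to every TSS of GENCODE release 44 (window 1000 bp). Presence per gene was compared between genotypes by exact permutation of 6 libraries across all coding genes, with Benjamini-Hochberg adjustment. Calls are 3 libraries against 0. Named were all members with a MYC summit, with POL2 in 3 libraries against 0 or in none, and the best POL2 rank per family, and partners with MYC in 5 or more libraries or 3 against 0. Other names were added after their values were seen. The members, lists and motifs were chosen with earlier results of these data known. Alternatives changed the window, TSS set, list length, score minimum and libraries. The calling code was checked with summits planted inside the window, in every SLK-KO library, at genes without a summit. Their recovery was fixed by that design, so the check gives no error rate. Python 3.11.15, numpy 2.4.6, pandas 2.3.3, samtools 1.23.1 and matplotlib 3.10.9 were used.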

Additional observations from a re-analysis of the deposited data

How the results depend on the processing

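The limits are 3 libraries per group, unknown depth, list lengths that differ between genotypes, and a test that cannot give a p below 0.1. No share difference changed sign. In lists of equal length the MYC share difference fell from 11.9 to 0.498 points, the genes in 3 SLK-KO and 0 WT libraries from 3 to 0 and those in at least 1 library from 13 to 2. For POL2 the difference was then 3.98 points, with 1 gene in 3 SLK-KO and 0 WT libraries and 32 genes in no library. An alternative chosen after seeing the data, without WT replicate 2 and with the other 5 lists at equal length, gave 1.24 points, 0 genes in SLK-KO alone and 1 gene (HDAC5) in WT alone, against 2 and 0 in the full lists. Among summits scoring 5 or more, the MYC difference was 7.46 points, 1 gene (KDM1A) was in 3 SLK-KO and 0 WT libraries for MYC and 1 (SMARCA2) for POL2, and 17 genes had no POL2 summit. With canonical TSSs only, the MYC difference was 8.46 points. Leaving out each library gave 11.2 to 12.7 points for MYC and 9.95 to 29.4 for POL2. The genes in SLK-KO alone ranged from 3 to 6 for MYC and 2 to 6 for POL2, those in at least 1 MYC library from 11 to 13, those in all POL2 libraries from 20 to 35 and those in none from 10 to 13. These counts need fewer libraries by construction. Between same-numbered libraries, correlations of deviations over coding genes were -0.0162 to 0.021 for MYC and -0.0153 to 0.107 for POL2. Differently numbered libraries were not set beside them, so whether replicate numbers pair the libraries was not tested. A replicate block left the counts at 3 and 2 and the differences at 11.9 and 19.9 points, with a smallest sign-flip p of 0.25.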

Other observations

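POL2 summits inside the gene bodies, over 1 kb from every annotated TSS of the gene, were counted for the 67 genes only. No share over all coding genes was computed, so the counts below have no background to be read against. The 67 genes held 21, 4 and 6 of them in the WT libraries and 32, 21 and 22 in the SLK-KO libraries, and 42 genes had none in any library. CHD2 had the most, with 3, 0 and 0 in WT and 9, 6 and 4 in SLK-KO. KMT2E had 2 in each WT library and 4, 3 and 2 in SLK-KO. SMARCC2, a scaffold subunit of SWI/SNF that lacked a promoter summit in 4 of 6 libraries, had 3, 1 and 1 in WT and 1, 2 and 1 in SLK-KO. KDM6B had 1, 0 and 2 in WT and 2, 3 and 1 in SLK-KO. These genes were chosen after their values were seen, and the POL2 lists differ in length.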
